A study of Mus musculus with 6 samples.

Results

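Airway epithelial cells in single cell RNA sequencing libraries of mouse proximal pulmonary arteries were described here, 1365 of 15622 kept droplet barcodes in 6 libraries. A barcode was kept with 500 or more unique molecular identifiers (UMIs, tags that each mark 1 captured RNA molecule), 300 or more detected genes and no more than 20% of its UMIs on mitochondrial transcripts. A member had at least 4 UMIs from at least 3 of the 8 genes Epcam, Krt8, Krt18, Wfdc2, Cyp2f2, Cbr2, Fxyd3 and Aqp3. These UMIs also had to exceed 2 times those on 8 genes of other lineages, Cdh5 (endothelium), Myh11 (smooth muscle), Pdgfra (fibroblasts), Ptprc, C1qa and Cd79a (immune cells), and Msln and Upk3b (mesothelium).

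The study compared young with old wild-type C57BL/6J mice to describe aging of the proximal artery, which was excised together with surrounding tissue, so the airway lies outside the vessel wall that was its subject. Young libraries were 2, each from 3-month mice and 1 of either sex, while the 4 old libraries came from animals of 20 months, 24 months, 27 months (male) and 28 months (female). Sex stood in the labels of the 3-month female, 27-month male and 28-month female libraries, and the study's text gave the other 3 as males. Each library was 1 sample of 1 age and some old mice came from another colony, so that age, colony and library depth cannot be told apart. The libraries held 9487564, 6355125, 7042921, 12851645, 36218542 and 50436562 UMIs, in the order 3-month male, 3-month female, 20-month, 24-month, 27-month male and 28-month female, which is used throughout.

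The lining of the conducting airways is built from secretory (club and goblet) cells, which release secretoglobins, mucins and antimicrobial proteins and metabolise inhaled chemicals, from ciliated cells, whose beating axonemes move the mucus, and from basal cells, which anchor the epithelium and renew both. Secretory cells are marked by Scgb1a1, ciliated cells by the transcription factor Foxj1, and basal cells by Krt5 and the transcription factor Trp63. Tuft cells, ionocytes and neuroendocrine cells are rare.

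Before any value of these cells could be read, the libraries themselves had to be compared, since barcodes of the 3-month male, 3-month female and 24-month libraries coincided. A barcode is the 16-base tag of 1 droplet, and unrelated libraries should share few of them. The following 6 barcodes had the most UMIs among shared members of each of the 3 libraries and are shown because the same tag carried airway RNA in each of them.

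3-month male barcode 1: catagactcggtgtat
3-month male barcode 2: aggccacagtattccg
3-month female barcode 1: gtaatgcagagcagaa
3-month female barcode 2: cctatcgcacgacctg
24-month barcode 1: cgaattgagcacggat
24-month barcode 2: ctactattcttcgctg

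The first of these held 13137 UMIs in the 3-month male library, 1809 in the 3-month female library and 802 in the 24-month library, with 0 in each of the other 3. Of these UMIs, 6669, 987 and 408 were Scgb1a1. The first 3-month female barcode held 3128, 15301 and 3600 UMIs in the same 3 libraries, and the first 24-month barcode held 1186, 3285 and 22570. Each tag was thus most abundant in 1 library and appeared at a lower level in the other 2.

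Of the 1365 members, 134 were members in both the 3-month male and the 3-month female library, 117 in both the 3-month male and the 24-month library, and 195 in both the 3-month female and the 24-month library. No barcode was a member in any other pair of libraries, and in those 12 pairs at most 4 kept barcodes of any kind coincided. The members were therefore 1035 different barcodes, and 116 barcodes were members in all 3 libraries. Of these 116, 108 had most UMIs in the 3-month female library, 6 in the 24-month library and 2 in the 3-month male library. Their median was 1222 UMIs in the 3-month male, 5802.5 in the 3-month female and 1492 in the 24-month library.

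**Figure D1:**
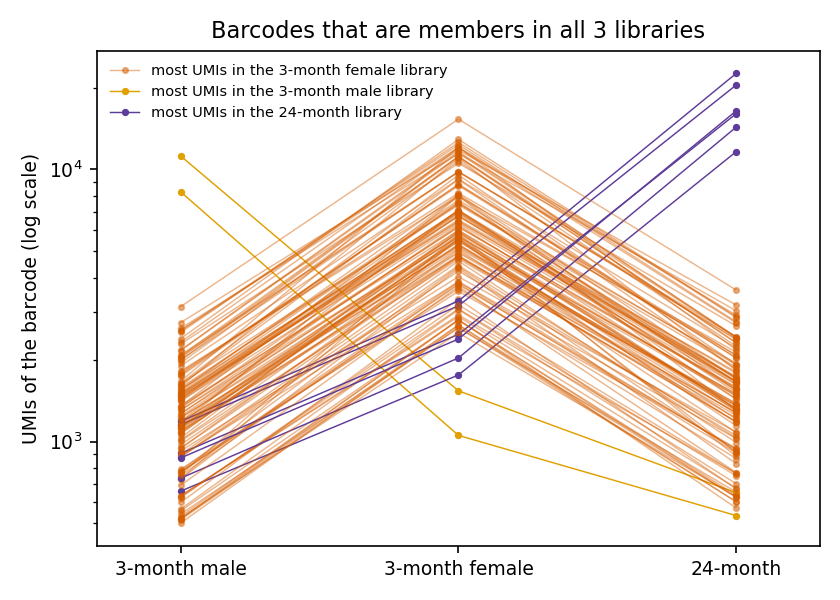
UMIs of each of the 116 barcodes that were members in the 3-month male, 3-month female and 24-month libraries (log axis), with 1 line per barcode coloured by the library in which it had most UMIs. Most lines (108) peak in the 3-month female library, where the median of all 116 is 5802.5 UMIs against 1222 and 1492 in the other 2.

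The overlap was higher among airway cells than among other barcodes. Members also kept in another library made up 51.3%, 51.8% and 39.0% of members in the 3-month male, 3-month female and 24-month libraries, against 1.46%, 6.54% and 1.15% of their other kept barcodes. In the 20-month library 3.33% of members and in the 27-month male and 28-month female libraries 0% of members were kept elsewhere. At a lower bar the sharing was wider still, since 87.5%, 96.9% and 88.7% of members of the 3 libraries had at least 100 UMIs under the same tag in some other library. At that bar other barcodes were widely shared too, since 46.7% of those of the 3-month male library and 49.0% of those of the 24-month library had 100 UMIs in the 3-month female library, and 46.0% of those of the 3-month female library had them in the 24-month library. Between the 3-month male and the 24-month library the shares of other barcodes were 6.63% and 4.22%.

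The content of a shared tag also coincided. The cosine between log counts of the same barcode in 2 libraries had a median of 0.654, 0.647 and 0.665 for the pairs 3-month male with 3-month female, 3-month male with 24-month and 3-month female with 24-month. For other pairings of the same barcodes the medians were 0.414, 0.392 and 0.433. The most alike barcode in the partner library was the same tag for 116 of 134, 115 of 117 and 189 of 195 shared members. These values describe the files, and no test was made of them.

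Sex-linked transcripts followed the library in which a tag had most UMIs, not the library it was listed in. Members of the 3-month male library held 143 UMIs of Xist, the RNA of the inactive X chromosome of female cells, and 142 of them lay in the 108 members with most UMIs in the 3-month female library. In the 24-month library 151 of 154 Xist UMIs lay in the 124 members with most UMIs in the 3-month female library. Conversely, the members of the 3-month female library held 28 UMIs of the Y-linked genes Ddx3y, Eif2s3y, Kdm5d and Uty, 22 of them in the 69 members with most UMIs in the 24-month library and 4 in the 20 members with most UMIs in the 3-month male library. Counted once, in the library of most UMIs, the members of these 3 libraries numbered 148, 326 and 395. How RNA of 1 tag came to lie in several libraries was not tested.

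**Figure D2:**
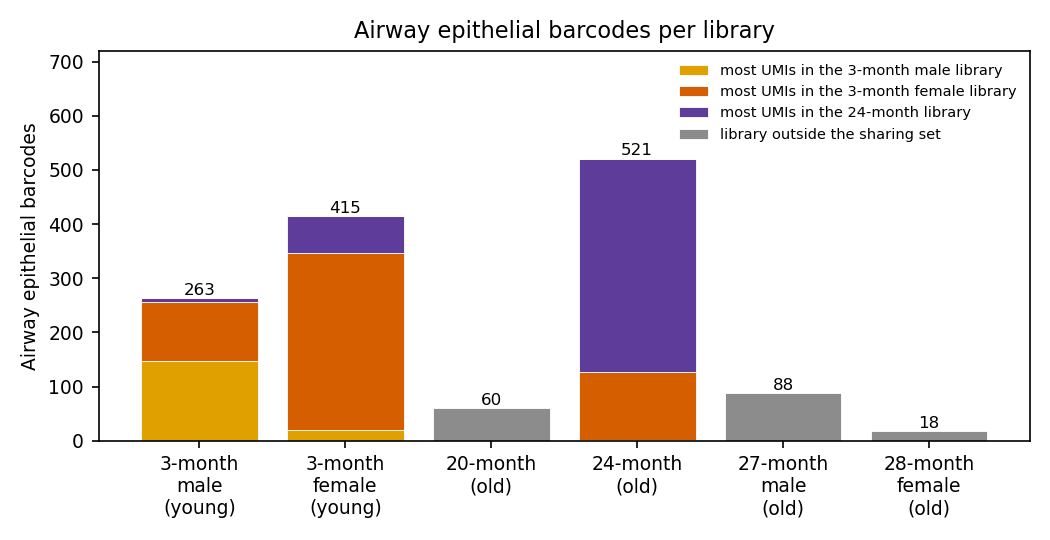
Number of airway epithelial barcodes per library (bars from 0), split for the 3 libraries that share barcodes by the library in which each barcode had most UMIs. In the 3-month male library 148 of 263 barcodes had most UMIs there, in the 3-month female library 326 of 415 and in the 24-month library 395 of 521.

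The 20-month library stood apart in another way. It was given as male, but its members held 147 Xist UMIs against 11 of Ddx3y, 3 of Uty and 0 of Eif2s3y and Kdm5d, and its other kept barcodes held 2264 Xist UMIs against 214 on the 4 Y-linked genes. In the 27-month male library the members held 3 Xist UMIs against 310 on the Y-linked genes, and in the 28-month female library 273 against 0. The 20-month library is named by its age alone here.

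Members were most frequent in the 3-month female library, where they were 415 of 935 kept barcodes or 44.4% (95% exact binomial interval 41.2% to 47.6%). They were 263 of 2722 (9.66%) in the 3-month male, 60 of 1233 (4.87%) in the 20-month, 521 of 2868 (18.2%) in the 24-month, 88 of 3797 (2.32%) in the 27-month male and 18 of 4067 (0.443%) in the 28-month female library. Intervals cover counting error only. Young libraries averaged 27.02% ± 24.6 (SD, n = 2) and old libraries 6.45% ± 8.02 (SD, n = 4), and the 24-month library lay between the 2 young ones. The two-sided exact permutation test gave p = 0.267, and with 2 against 4 libraries it cannot go below 0.133. With barcodes that had at least 100 UMIs in another library left out, the difference of old minus young shrank from -20.6 to -0.504 percentage points. That setting also removed barcodes from the library where they had most UMIs. It left 33, 13 and 59 members in the 3-month male, 3-month female and 24-month libraries. With barcodes counted only in the library of most UMIs, the difference was -17.2 percentage points (young mean 22.7%, old mean 5.52%). How much airway was excised with each artery is not recorded in the labels.

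Depth differed as well. The median member held 1219, 1370, 2547.5, 1461, 9287 and 8892 UMIs in the 6 libraries, so members of the last 2 libraries were sampled several times more deeply than those of the 3 sharing libraries. The rule's own genes sat well above its limit, with a median of 32 UMIs on the 8 airway genes, 43 members with 4 to 7 of them and 134 members with exactly 3 of the genes. Just outside, 545 kept barcodes had 3 UMIs on the 8 genes, 931 had at least 4 from 1 or 2 genes, and 226 were refused for their UMIs of other lineages. As these genes chose the members, their levels are a description. Wfdc2, a protease inhibitor, had a UMI in 97.9% of members, Cyp2f2, a cytochrome P450 of club cells, in 97.5%, Cbr2, a lung carbonyl reductase, in 97.1%, Fxyd3, a regulator of the sodium pump, in 69.0%, and Epcam, an epithelial adhesion molecule, in 33.2%.

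Markers of other lineages were found at varied levels. The 8 genes that counted against membership were kept low by the rule itself, and among them Msln had a UMI in 19.9% of members, Myh11 in 3.00%, Ptprc in 1.61%, C1qa in 1.54%, Cd79a in 1.39%, and Cdh5, Upk3b and Pdgfra in at most 0.366%. Msln had 962 UMIs, and of the 3 listed mesothelial genes that the rule did not use, Upk1b had 318 UMIs in 16.5% of members, while Wt1 and Lrrn4 had 4 and 2 UMIs. Of the other markers outside the rule, Dcn, a matrix proteoglycan of fibroblasts, had 1110 UMIs in 26.7% of members. It lay between 143 and 321 CPM (counts per 1000000 UMIs) in every library. The fibroblast genes Col1a2, Col3a1, Col1a1 and Lum had 100, 84, 32 and 18 UMIs. Col1a2 and Col3a1 were highest in the 27-month male library, at 68.6 and 52.3 CPM. The listed fibroblast genes summed to 150 to 475 CPM in members, against 422 to 2340 CPM in barcodes under 100 UMIs. Pecam1, an endothelial adhesion molecule, had 127 UMIs in 4.98% of members, while the endothelial genes Cldn5, Kdr and Egfl7 had 12, 3 and 0 UMIs. The globin Hbb-bs had a UMI in 54.3% of members. All 11 listed genes of alveolar type 2 cells had UMIs, in 0.293% to 24.6% of members, with the surfactant proteins Sftpa1 (24.2%) and Sftpd (24.6%) and the lipid transporter Abca3 (11.3%) the most frequent and Sftpc, the surfactant protein that marks these cells, in 1.83%. All 8 listed genes of alveolar type 1 cells had UMIs as well, with the water channel Aqp5 in 48.5% of members, Pdpn in 38.6%, Hopx in 22.1% and Clic5 in 8.21%, and the other 4, among them the receptor Ager (0.806%), in at most 1.47%. Of the T cell genes Cd3d and Cd8a had 0 UMIs and Trac, Cd3e and Cd3g 2 each, while Ighm, the highest of the B cell genes, had 43. Of the thymic epithelial genes Foxn1, Aire and Fezf2 had 0 UMIs and Ly75, the highest, 75 in 4.84% of members. The highest genes of heart muscle and cartilage were Tnnt2 with 26 and Cnmd with 11 UMIs. Sox2, a transcription factor of the conducting airway, had 0 UMIs in members and also 0 in all other kept barcodes of the series.

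RNA of smooth muscle and red blood cells was high in single libraries. The smooth muscle genes Myh11, Acta2, Tagln, Cnn1 and Des summed to 1003 CPM in members of the 27-month male library, led by Acta2 at 519 CPM. In the other 5 libraries they summed to 3.9 to 38.4 CPM. Stromal barcodes numbered 2887 in the 27-month male library. They numbered 1936 in the 28-month female library, whose members held 19.9 CPM of the smooth muscle genes. The globin genes Hba-a1, Hba-a2, Hbb-bs and Hbb-bt summed to 11978 CPM in the 24-month library against 22.1 to 829.9 CPM in the others, led by Hbb-bs at 7234 CPM. Their part in the comparisons was not tested.

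Secretory products filled a large part of the transcriptome. Scgb1a1, the club cell secretoglobin, made up 19.4%, 18.7%, 19.5%, 24.999%, 14.1% and 7.48% of all member UMIs in the 6 libraries. Bpifa1, an antimicrobial protein of the airway surface, followed at 41398, 45637, 26783, 47380, 49687 and 57134 CPM. Scgb3a1 and Scgb3a2, further secretoglobins, averaged 25709 and 23039 CPM over libraries. Together the 4 genes took 28.9%, 28.9%, 26.997%, 34.1%, 22.1% and 19.2% of member UMIs. The 28-month female library, with 18 members, was lowest for Scgb1a1 and highest for Bpifa1.

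Members differed widely from each other in these 4 products. In the 24-month library, the share of a member's UMIs on the 4 genes ran from 0 to 77.1% with a median of 4.90%, and 234 of 521 members exceeded 10%. In the 27-month male library the median was 0.808%, the highest value 52.9%, and 30 of 88 members exceeded 10%. Scgb1a1 had a UMI in 87.1% of members. The 642 secretory-high members, defined below with the classes of members, held 918307 of its 926260 UMIs. As Scgb1a1 belongs to the list that defines that class, this is a description.

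Measured against other kept barcodes, the genes most enriched in members that were not part of the rule were Reg3g, a lectin that kills bacteria, at 4252 against 5.03 CPM (means over 6 libraries), Bpifa1 at 44670 against 88.8 CPM, Scgb3a2, Scgb3a1 and Lypd2. After them came Scgb1a1, the gel-forming mucin Muc5b, the antimicrobial Bpifb1, the trefoil peptide Tff2, the transcription factor Sox21, Cyp2a5, Tspan1 and Agr2. The 15 most abundant genes of members also held Malat1, mt-Cytb, Rpl41, S100a6, mt-Rnr2, Rn18s and Tmsb4x, each within 3 times its level in other barcodes. Reg3g was highest in the 28-month female library at 10671 CPM and between 2198 and 3789 CPM in the other 5. Muc5b behaved alike, with 1356 CPM in the 28-month female and 422 to 590 CPM elsewhere, while the second gel-forming mucin Muc5ac had 24 UMIs in all. Because members were chosen on this contrast, no test was made of it.

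Secretory, basal and ciliated programs were scored from 25, 14 and 16 genes that the rule did not use, and a member was said to show a program with at least 3 UMIs from at least 2 of its genes. The secretory program was shown by 97.0%, 96.4%, 96.7%, 97.3%, 98.9% and 100% of members (young 96.7% ± 0.405, SD, n = 2; old 98.2% ± 1.51, SD, n = 4; two-sided exact permutation p = 0.267). Among immune barcodes of the same libraries, which should lack the program, it was shown by 2.03%, 15%, 22.2%, 10.3%, 50.5% and 26.8%, at median depths of 863.5, 792, 2591.5, 845, 5475 and 6015 UMIs. Secretory RNA was thus counted in barcodes of another type in all 6 libraries. Thinned to 500 UMIs per member, the shares were 93.2% and 89.6% in young and 76.7%, 88.5%, 94.3% and 83.3% in old libraries, so the difference of the means turned from 1.54 to -5.70 percentage points (exact permutation p = 0.533) and the groups overlapped.

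The basal program was shown by 62.4%, 55.4%, 66.7%, 51.6%, 79.5% and 61.1% of members (young 58.9% ± 4.90, SD, n = 2; old 64.7% ± 11.7, SD, n = 4; exact permutation p = 0.667). In immune barcodes it was shown by 0% to 2.23%, and in stromal barcodes by 0%, 0%, 10.4%, 0%, 5.16% and 8.57%. Thinned to 500 UMIs per member, the shares were 34.2%, 27.7%, 23.3%, 16.9%, 9.09% and 11.1%, so the order of the groups turned round, and every old library lay below both young ones. At p = 0.133 this was the smallest value the exact permutation test can give.

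The ciliated program was shown by 19.8%, 31.1%, 40.0%, 24.8%, 68.2% and 66.7% of members (young 25.4% ± 7.999, SD, n = 2; old 49.9% ± 21.2, SD, n = 4; exact permutation p = 0.267). The 24-month library lay between the young ones. After thinning the shares were 11.8% and 16.6% in young and 16.7%, 14.8%, 38.6% and 33.3% in old libraries, so the 24-month library again lay between the young ones and the 20-month library was level with the higher of them. In stromal barcodes of the 27-month male library 15.7% showed the program at a median of 8844 UMIs and 0.104% after thinning, against 68.2% and 38.6% of its members.

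As these calls depend on depth, the share of a member's UMIs on each gene list was used to divide the members. A member was placed as ciliated-high at 1% or more on the 16 ciliated genes, else as secretory-high at 10% or more on the 25 secretory genes, else as basal-high at 0.5% or more on the 14 basal genes. These limits were set after the values were seen and cut a range, with 86 members between 0.5% and 1% of ciliated UMIs, 53 between 5% and 10% of secretory UMIs and 290 between 0.25% and 0.5% of basal UMIs. They gave 642 secretory-high (47.0%), 258 basal-high (18.9%) and 147 ciliated-high members (10.8%), and 318 (23.3%) reached no limit. These are shares of all 1365 members, which were 1035 different barcodes. A barcode shared between libraries was counted in each of them.

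Ciliated-high members held a median of 1.60% ciliated, 1.49% secretory and 0.0284% basal UMIs, and 9 of the 147 also reached the secretory limit. The 4 secreted products took a median of 0.139% of their UMIs, against 41.2% in secretory-high members. Foxj1, a gene of the defining list, stood at 575 CPM in ciliated-high, 54.8 in secretory-high and 13.3 in basal-high members. Genes outside the lists that led these members were Zmynd10 and Daw1, which serve the assembly of axonemal dyneins, Dnah10, a dynein heavy chain, and Tekt1, a microtubule protein of cilia. Zmynd10 reached 208 CPM against 8.69 CPM in the other members and Dnah10 493 against 25.6 CPM. Of the ciliated genes, Sec14l3 was the most abundant over all members, with a UMI in 43.1% of them. Pooled over libraries, Cyp2a5 and Aldh1a1, both on the secretory list, were higher here than in any other class, at 2813 and 6221 CPM. They stood at 1310 and 2360 CPM in secretory-high and 111 and 556 CPM in basal-high members. By library the ranges of ciliated-high and secretory-high members overlapped. They were 1529 to 4129 against 506 to 1718 CPM for Cyp2a5, and 1256 to 8577 against 914 to 3953 CPM for Aldh1a1.

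Basal-high members held a median of 0.701% basal, 1.16% secretory and 0% ciliated UMIs. Of the genes that define the class, Krt5, the keratin of basal cells, stood at 677 CPM against 69.2 CPM in secretory-high and 26.5 CPM in ciliated-high members, and Trp63 at 728 against 104 and 10.2 CPM. Krt15 was the most abundant gene of the list at 1782 CPM. The laminin subunit gene Lamb3 (230 CPM) and the hemidesmosomal collagen Col17a1 (173 CPM), which tie basal cells to their matrix, were also highest in this class. Both belong to the list that defines it, so this is a description. Krt14, a further basal keratin, had 7 UMIs in all members. Outside the list, Hpse (heparanase) reached 226 against 16.4 CPM in other members, and Mir205hg, the host transcript of an epithelial microRNA, 168 against 30.1 CPM.

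Secretory-high members held a median of 43.2% secretory UMIs. Scgb1a1 stood at 263526 CPM in them, against 4011 in basal-high and 6727 in ciliated-high members. Scgb1a1, Tff2, Bpifb1 and Muc5b belong to the list that defines the class. Outside the list, Ltf (lactoferrin) stood at 2369 CPM in it and Pigr, the receptor that carries IgA across the epithelium, at 414 CPM, against 158 and 32.8 CPM in the other members. Fmo1, a flavin monooxygenase, had 334 of its 341 UMIs there, while its relative Fmo2 was higher in basal-high members (598 against 209 CPM). The 318 remaining members were led by the globins and Sftpc, with Hbb-bs at 8414 against 1372 CPM in other members, and 170 of them came from the 24-month library.

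**Figure D3:**
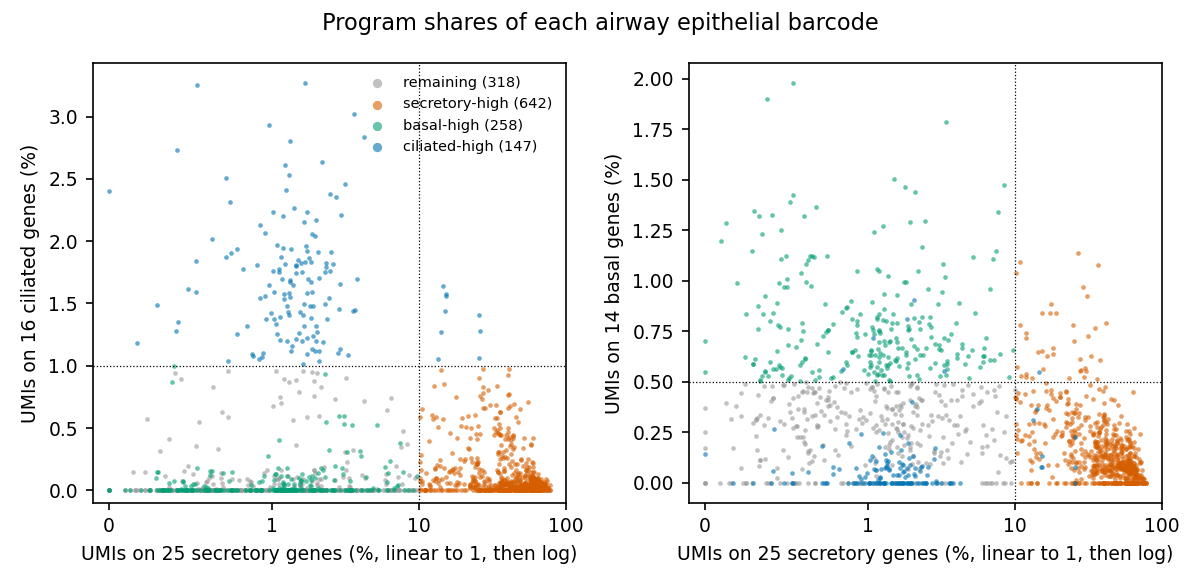
Each point is 1 of 1365 airway epithelial barcodes, placed by its share of UMIs on the 25 secretory genes (x, linear to 1% and logarithmic beyond) and on the 16 ciliated or 14 basal genes (y, linear). Dotted lines mark the limits of 10%, 1% and 0.5%. Ciliated-high points (147) have a median of 1.49% secretory UMIs, with 9 of them past the secretory limit beside the 642 secretory-high points, while basal-high points (258) grade into the 318 remaining ones.

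Most markers of the rare airway types were scarce. Foxi1, the ionocyte transcription factor, had 0 UMIs in members and 2 in all other kept barcodes, so its absence sets no limit on the share of ionocytes. Cftr, the chloride channel of ionocytes, had 25 UMIs in 22 members. The tuft cell channel Trpm5 had 12 UMIs in 9 members and the tuft cell factor Pou2f3 13 UMIs in 13 members, whereas Dclk1, the most abundant gene of the tuft list in all 6 libraries, had 181 UMIs in 79 members (5.79%). Calca, a neuroendocrine peptide, had 17 UMIs in 4 members, all in the 3-month female and 24-month libraries. Of the hillock and squamous genes, Krt13 had 10 UMIs and Krt4 111 UMIs.

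The makeup of members by class varied between libraries. Ciliated-high members were 6.84% and 9.40% in young libraries. In old libraries they were 9 of 60, 50 of 521 (9.60%), 27 of 88 (30.7%) and 4 of 18 (22.2%), so each old value lay above both young ones, although 9.60% barely exceeded 9.40%. Basal-high members were 25.5% and 23.6% in young and 21.7%, 12.3%, 14.8% and 16.7% in old libraries, with every old value below both young ones. Secretory-high members were 49.4%, 51.8%, 35.0%, 45.5% and 34.1% in the first 5 libraries and 9 of 18 in the last, and the groups overlapped. As the class limits were set on these cells, no test was made. Counted only in the library of most UMIs, ciliated-high members were 7.43%, 11.3% and 11.1% in the 3-month male, 3-month female and 24-month libraries, so that the 24-month library lay between the young ones. Secretory-high members were then 25.7%, 44.2% and 34.7% in the same libraries. Basal-high members were 37.8%, 27.9% and 13.4%, with every old value again below both young ones.

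Shared barcodes kept their class. Of the barcodes that were members in a pair of sharing libraries, 126 of 134 (94.0%), 109 of 117 (93.2%) and 184 of 195 (94.4%) fell into the same class in both, for the pairs 3-month male with 3-month female, 3-month male with 24-month and 3-month female with 24-month. The young and the 24-month values above are therefore not independent of each other.

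**Figure D4:**
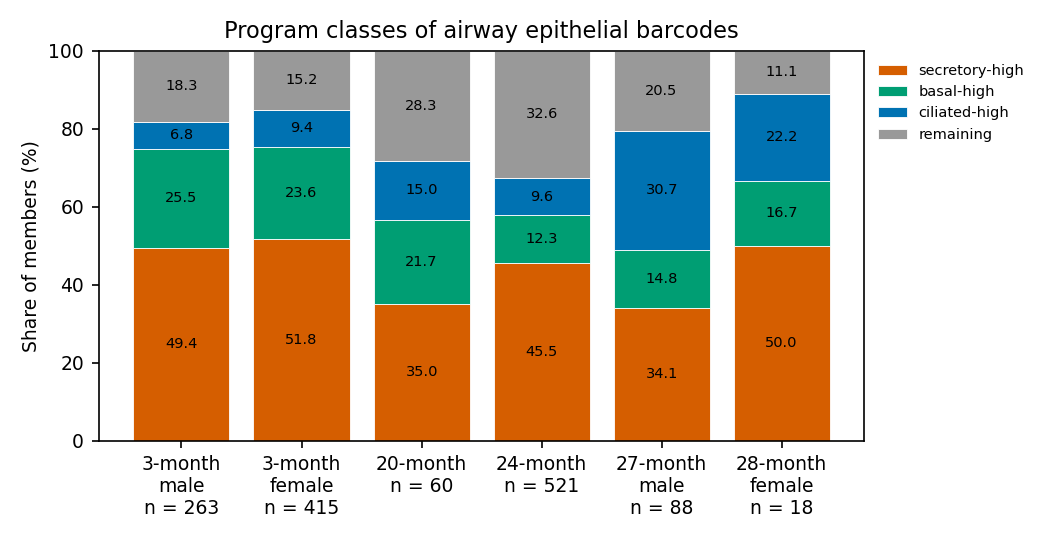
Share of members in each class (% of members, stacked to 100) in each of the 6 libraries, with the number of members below. Ciliated-high shares reach 30.7% and 22.2% in the 27-month male and 28-month female libraries and run from 6.84% to 15% in the other 4.

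To ask whether airway cells differed with age, UMIs of all members of a library were added up per gene, and edgeR's quasi-likelihood test set the 4 old against the 2 young sums for 7719 genes. Summed UMIs were 508575, 1129011, 312733, 1367888, 1356486 and 301659. Shared barcodes entered both groups, so the young and the 24-month sums were not independent. Of 521 members in the 24-month sum, 124 had most UMIs in the 3-month female and 2 in the 3-month male library. Conversely, 69 of 415 members in the 3-month female and 7 of 263 in the 3-month male sum had most UMIs in the 24-month library. No gene passed an adjusted p under 0.05 (0% of genes tested). At an unadjusted p under 0.05 there were 429 genes (5.56%), 219 higher (2.84%) and 210 lower (2.72%) in old libraries. That count ran from 148 without the 27-month male library to 767 without the 20-month library, was 229 without the 28-month female library, 765 without the 24-month library, 179 and 197 without the 3-month male and 3-month female library, and 97 with the sharing libraries as a covariate. Without barcodes of 100 UMIs in another library it was 690, with 630 higher and 60 lower. DESeq2 called 4 genes at an adjusted p under 0.05, mt-Co3, Dbp, Gm11771 and Arntl. Every old library lay above both young libraries for 616 genes (7.98%) and below both for 653 genes (8.46%). The lowest adjusted p of edgeR was 0.0635. In sums of this kind, fewer cells of a class and less RNA per cell cannot be told apart.

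The genes with the smallest unadjusted p are described although they failed the adjusted threshold, with CPM scaled by edgeR's TMM factors. mt-Co3, a mitochondrial cytochrome oxidase subunit, stood at 48.7 and 130 CPM in young and 3.78, 8.72, 2.67 and 2.89 CPM in old members (log2 fold change -4.18, SE 0.542, edgeR adjusted p = 0.0635). The groups did not overlap, and the old libraries rest on 16 UMIs in all. The other kept barcodes showed the same pattern without scaling, with 45.7 and 108 CPM in young and 3.16, 8.20, 1.54 and 2.18 CPM in old libraries, so the difference was not limited to airway cells. mt-Cytb, a further mitochondrial gene, ran from 2184 to 8360 CPM without scaling and its groups overlapped. Those of mt-Co1, mt-Nd1 and mt-Nd4 overlapped too, with their lowest value at 643 CPM. Like mt-Co3, other mitochondrial genes had few UMIs and varied by library. In members mt-Co2 stood at 0, 0, 0, 11.7, 2.95 and 29.8 CPM and mt-Atp6 at 0, 140, 0, 10.2, 8.11 and 19.9 CPM.

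Dbp, an output transcription factor of the circadian clock, stood at 46.5 and 65.7 CPM in young and 7.55, 11.3, 6.01 and 8.66 CPM in old members (log2 fold change -2.74, SE 0.384, edgeR adjusted p = 0.0642). Arntl, the core clock activator whose RNA cycles opposite to Dbp, stood at 8.85 and 22.9 CPM in young and 68.0, 73.2, 114 and 101.04 CPM in old members (log2 fold change 2.38, SE 0.449, edgeR adjusted p = 0.590). For both, no old library overlapped a young one. In other kept barcodes Dbp was at 82.0 CPM in the 20-month library, above both young libraries at 58.2 and 31.1 CPM, so there the groups overlapped.

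Further clock genes were then looked up, a list drawn up after Dbp and Arntl were seen and therefore not tested as a list. Of 13 clock genes 11 were measured well enough, 4 higher and 7 lower in old members, 5 of them at an unadjusted p under 0.05 (background 5.56%). Both counts include Dbp and Arntl, which prompted the list. Nr1d1 and Nr1d2, repressors that peak near Dbp, had log2 fold changes of -1.41 and -1.49, and Npas2, a partner of Arntl, of 2.10. The labels give no hour of death for the animals.

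The other lower genes were Gm11771, Alyref, an RNA export factor, and Gm8130. Alyref stood at 206 and 189 CPM in young and 49.1, 84.6, 25.4 and 63.5 CPM in old members (log2 fold change -1.83, SE 0.425, edgeR adjusted p = 0.827). Gm11771 and Gm8130 are named only by predicted symbols, and their counts may share reads with related genes. The other higher genes were Gm19935, Zfp950, Rapgef5 and Prxl2a, with log2 fold changes of 1.75, 2.57, 1.77 and 1.53 and the same edgeR adjusted p of 0.827. Gm19935 was close to absent outside members, at 0.831 to 12.0 CPM in other kept barcodes against 43.3 to 307 CPM in members, both without TMM scaling.

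**Figure D5:**
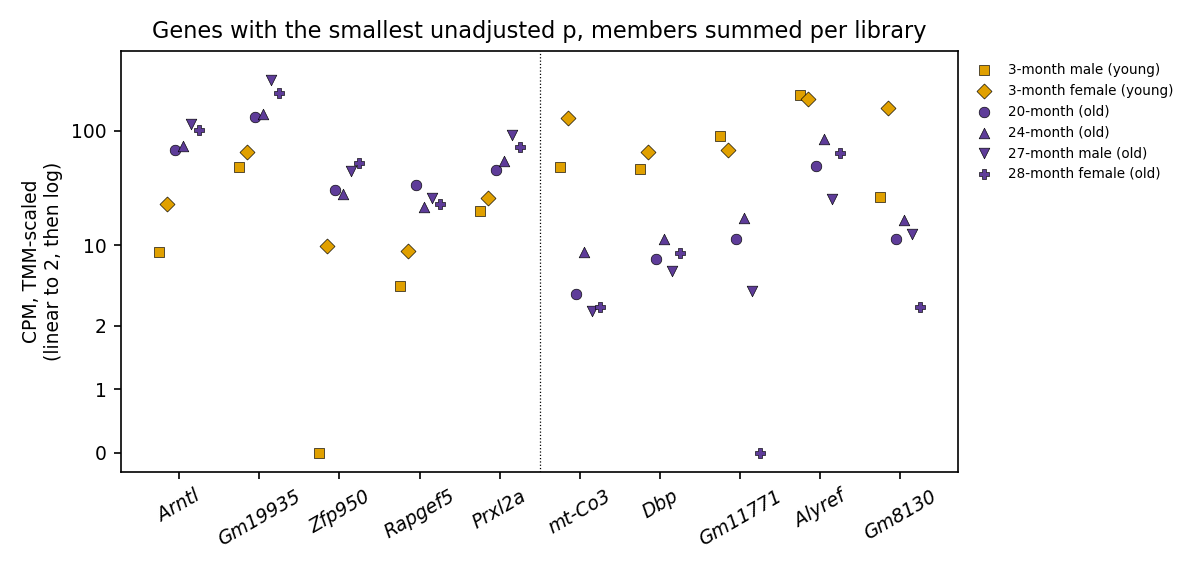
TMM-scaled CPM (linear to 2, logarithmic beyond) of the 10 genes with the smallest unadjusted p, 5 higher (left) and 5 lower (right) in old libraries, with 1 marker per library, gold for the 2 young and purple for the 4 old libraries. For each of the 10 genes the old markers lie apart from both young markers, and none of the 10 passed an adjusted p under 0.05 in edgeR.

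Gene groups are given by counts beside those of all 7719 genes, whose median log2 fold change was 0.02. Of 16 ciliated genes, all tested, 15 were higher and 1 lower in old members, with a median log2 fold change of 0.71. Summed without scaling, the 16 stood at 1455 and 2296 CPM in young and 1816, 2320, 4846 and 3806 CPM in old members, so the groups overlapped. None passed the adjusted threshold, 3 had an unadjusted p under 0.05 (background 5.56%), and 5 had every old library above both young ones (background 7.98%). Fam183b, a cilia gene, stood at 70.8 and 85.7 CPM in young and 177, 148, 178 and 150 CPM in old members (log2 fold change 1.05, SE 0.332, edgeR adjusted p = 0.827). Hydin, a protein of the ciliary central apparatus, was at 226 and 243 CPM in the 27-month male and 28-month female and at 39.8 to 95.9 CPM in the other 4 libraries, where young and old overlapped. The ciliated-high class rests on these same 16 genes, so its shares are no separate evidence.

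Basal genes leaned the other way. Of 14 listed, 11 were tested, 9 lower and 2 higher, with a median log2 fold change of -0.66. Of these, 2 had an unadjusted p under 0.05 (background 5.56%), and 5 had every old library below both young ones (background 8.46%). Krt17, a keratin of activated epithelium, stood at 223 and 163 CPM in young and 94.4, 62.8, 13.4 and 5.77 CPM in old members (log2 fold change -2.20, SE 0.820, edgeR adjusted p = 0.827). Col17a1 stood at 66.4 and 68.7 CPM in young and 26.4, 41.0, 13.4 and 8.66 CPM in old members (log2 fold change -1.54, SE 0.493, edgeR adjusted p = 0.827). The basal-high class rests on the same 14 genes and its shares are likewise no separate evidence. Krt4 of the hillock genes, with 77 UMIs in young and 34 in old members, had a log2 fold change of -2.01. It turned to 5.18 with barcodes of at least 100 UMIs in another library left out. In that setting 33 and 13 young members were left, and the median log2 fold change of all genes tested was 0.95.

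Secretory genes showed no common direction, 11 higher and 11 lower of 22 tested, with a median log2 fold change of -0.04. Only 1 had an unadjusted p under 0.05 (background 5.56%), Cckar, a cholecystokinin receptor (-1.36). Scgb1a1 stood at 218001 and 210393 CPM in young and 230314, 298091, 127545 and 65146 CPM in old members, so the groups overlapped (log2 fold change -0.25, SE 0.592, edgeR adjusted p = 0.953). Its sign depended on the libraries used and turned in 6 alternatives, among them that without the 28-month female library (0.08). Of 14 mucosal defence genes 12 were tested, 7 higher and 5 lower. Wfdc2, counted among the 12, also chose the members, and nothing is read from its value. Pigr had the clearest value, at 115 and 166 CPM in young and 261, 224, 377 and 1106 CPM in old members (log2 fold change 1.79, SE 0.692, edgeR adjusted p = 0.827).

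Of 21 genes of xenobiotic metabolism, 13 were higher and 8 lower, with a median log2 fold change of 0.11 and 3 at an unadjusted p under 0.05 (background 5.56%). Fmo1 stood at 28.8 and 36.9 CPM in young and 79.3, 75.8, 107 and 66.4 CPM in old members (log2 fold change 1.32, SE 0.356, edgeR adjusted p = 0.827). Aox3, an aldehyde oxidase, was at 159 and 158 CPM in young and 140, 273, 504 and 650 CPM in old members, and the glutathione transferase Gstp1 had a log2 fold change of -1.28. Cyp2f2 and Cbr2, counted among the 21 genes, also chose the members, and nothing is read from their values.

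Genes that respond to tissue dissociation had negative log2 fold changes in 11 of 12 cases, with a median of -0.61 (all genes 0.02), 3 at an unadjusted p under 0.05 (background 5.56%) and 5 with every old library below both young ones (background 8.46%). Fosb stood at 1800 and 1100 CPM in young and 487, 665, 243 and 110 CPM in old members (log2 fold change -1.94, SE 0.602, edgeR adjusted p = 0.827). Fos was the most abundant of them with a UMI in 71.6% of members. Zfp36 and Nr4a1 had log2 fold changes of -1.03 and -1.63, whose sign turned in 2 alternatives and in 1 alternative. Summed without scaling, the 12 genes ran from 9881 CPM in the 3-month male to 2098 CPM in the 28-month female library. Their part in the other comparisons was not tested. Of 12 genes of senescence and its secretory phenotype only 4 were tested, 1 higher and 3 lower, Icam1 was the most abundant (a UMI in 25.6% of members), and Cdkn2a, the gene of p16, had 4 UMIs in all members.

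Interferon-stimulated genes were set apart by 1 old library more than by age. Their sum was 2267 CPM in the 20-month library, without scaling, against 603 to 1117 CPM in the other 5, led by Ifitm3, which restricts virus entry, at 1193 against 227 to 606 CPM. Of 13 genes 9 were tested, 6 higher and 3 lower in old members, with a median log2 fold change of 0.23. Of the 9, 0 had an unadjusted p under 0.05 (background 5.56%).

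Genes of the epithelial sheet itself were counted last. Of 12 genes of junctions and keratins, led by Krt19 at a mean of 604 CPM, 11 were tested. All 11 had a negative log2 fold change, with a median of -0.38. Among them, 0 had an unadjusted p under 0.05 (background 5.56%) and 1 had every old library below both young ones (background 8.46%). Of 12 epithelial transcription factors, led by Klf5 at a mean of 388 CPM, 10 were tested, 8 lower and 2 higher in old members, with a median log2 fold change of -0.28 and 2 at an unadjusted p under 0.05 (background 5.56%), Grhl2 and Foxa1. Grhl2 stood at 48.7 and 57.8 CPM in young and 83.1, 63.6, 120 and 162 CPM in old members (log2 fold change 0.99, SE 0.424, edgeR adjusted p = 0.827). Foxa1 had a log2 fold change of -0.82 with the same edgeR adjusted p, and for both genes the groups did not overlap.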

How the data were processed

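Single cell RNA of 6 mouse libraries was used, and another young sample of the study is not analysed here. Per the labels and the study's methods, tissue was digested with collagenase and elastase, captured with 10x Genomics 3′ chemistry, and reads were trimmed with Cutadapt and counted with STAR (STARsolo) on GRCm38.p6. For each library the authors deposited an unfiltered matrix of raw UMI counts over 53647 genes and 6794880 barcodes, and its total is the depth given above. No coordinates are given, since identifiers and annotation releases differed.

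Members and gene lists were chosen with earlier results of these data known. The rule on members used no doublet caller. UMIs were summed per library over members. Genes with a count in over 5% of members in at least 3 libraries were tested with edgeR 4.0.16 (TMM, robust quasi-likelihood F test, Benjamini-Hochberg) in R 4.3.3, where the study fitted a mixed model over cells. On simulated counts for this comparison and its 7719 genes, of 200 changed genes the fit recovered 52.0% at 4-fold and 95.0% at 16-fold, with 15 and 23 unchanged genes called. The simulated libraries were drawn independently and shared no barcodes, unlike the 3 sharing libraries, so these rates may not hold for the data. Single values were compared with the exact permutation test of scipy 1.17.1. P-values measure the spread between these libraries, which nothing states to be separate cultures or days. Named genes were those of the rule, the highest of each list, the 15 highest by level and by ratio to other barcodes, and, as none passed, the 5 of each direction with the smallest p. Others were named after their values were seen: the clock genes, Fam183b, Hydin, Pigr and other list members with a small unadjusted p, and the leading genes of each class.

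Alternatives were other limits on barcodes and members, scrublet doublets (scanpy 1.11.5) left out, shared barcodes left out, thinning to 500 UMIs, DESeq2 1.42.0, no TMM, other gene filters, the sharing libraries as a covariate, members without the ciliated or basal program, and each library left out. Chosen after seeing the data were counting shared barcodes in the library of most UMIs, leaving out barcodes with 100 UMIs elsewhere, and leaving out both deepest libraries. Python 3.11.15, numpy 2.4.6, pandas 2.3.3 and matplotlib 3.10.9 were used.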

Additional observations from a re-analysis of the deposited data

How the results depend on the processing

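Depth and barcode sharing limit these cells, with median UMIs per member from 1219 to 9287, and the 28-month female library rests on 18 members. No paired analysis was possible because the labels give no shared replicate numbers. The old minus young share of members was negative under every alternative, and leaving out 1 library gave -37.9 to -3.21 percentage points. With only the 3 sharing libraries it was -8.86, without both deepest libraries -15.5, and -12.2 with barcodes kept in more than 1 library left out. The secretory program's difference moved from 1.54 to 4.46 percentage points with barcodes kept in more than 1 library left out, to 8.10 without barcodes of 100 UMIs elsewhere, and to -5.70 after thinning. Leaving out 1 library gave 0.943 to 2.05. The basal program's difference moved from 5.85 to -15.9 after thinning, to -7.26 in the 3 sharing libraries alone and to -3.40 with barcodes counted in the library of most UMIs, and leaving out 1 library gave 0.914 to 10.2. The ciliated program's difference moved from 24.5 to -0.668 in the 3 sharing libraries, to 6.95 without both deepest libraries and to 11.6 after thinning, and leaving out 1 library gave 18.4 to 32.9. The cause was not tested.

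The count of genes past an adjusted p of 0.05 was 0 in edgeR and in each fit without 1 library. It was 1 with barcodes kept in more than 1 library left out, 1 with barcodes counted in the library of most UMIs, 3 without barcodes of 100 UMIs elsewhere, where 33 and 13 young members were left and the median log2 fold change was 0.95, 4 in the 3 sharing libraries (1 old library, assumed to vary like the young), 4 with DESeq2, 7 without ciliated or basal program in the 3 libraries with enough members, and 162 with no gene filter. mt-Co3 passed in 5 of its 15 alternatives, and its edgeR or DESeq2 log2 fold change ran from -5.14 to -3.37. Arntl, Dbp and Gm11771 passed in 2 alternatives each, Gm19935, Zfp950, Alyref and Gm8130 in 1 each, and Rapgef5 and Prxl2a in 0. All 10 genes of smallest p kept their direction wherever they were tested. Without TMM the median log2 fold change of all genes was 0.17 in place of 0.02 and 63.6% of genes in place of 51.9% were higher in old members.

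Scgb1a1 turned from -0.25 to 4.44 without barcodes of 100 UMIs elsewhere, 0.084 without the 28-month female library (old replicate 3), 0.50 in the 3 sharing libraries, 0.35 without both deepest libraries, 0.48 with the sharing libraries as a covariate and 0.19 without ciliated or basal program. Leaving out 1 library gave Scgb1a1 log2 fold changes of -0.61 to 0.084. Without barcodes of 100 UMIs elsewhere few secretory-high members were left in the sharing libraries. They were 1 of 33 in the 3-month male, 3 of 13 in the 3-month female and 1 of 59 in the 24-month library. Krt4 and Zfp36 turned to 5.18 and 0.83 without barcodes of 100 UMIs elsewhere, and Zfp36 and Nr4a1 to 0.32 and 0.070 without ciliated or basal program.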

Other observations

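Genes of DNA replication, listed after Dnmt1, Hells and Mcm4 had been noticed among the lower genes and therefore not tested as a list, are given as values. Of 11 such genes, 7 passed the filter on low counts, 0 were higher and 7 lower, with a median log2 fold change of -1.59, 4 lower at an unadjusted p under 0.05 (2.72% of all genes tested) and 0 past the adjusted threshold of edgeR. These counts include the 3 genes that prompted the list. Hells, a chromatin remodeller, stood at 41.3 and 33.7 CPM in young and 15.99, 15.4, 7.37 and 9.95 CPM in old members, without TMM scaling. Mcm4, a subunit of the replicative helicase, stood at 33.4 and 29.2 CPM in young and 9.59, 14.6, 8.11 and 9.95 CPM in old members. Mki67, a marker of cycling cells, had 4 and 9 UMIs in young and 1, 3, 0 and 0 UMIs in old members, too few for the test.

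MHC class II genes, which airway cells can express, were scarce. The 6 genes summed to 130, 30.1, 35.2, 177, 75.9 and 269 CPM, led by Cd74. Lyz2, a lysozyme that club cells share with macrophages, had a UMI in 36.3% of members, with 1886 CPM in secretory-high, 1849 CPM in ciliated-high and 93.0 CPM in basal-high members, while the macrophage genes C1qb, Cd68, Fcer1g and Csf1r, which the rule did not use, had 36, 44, 36 and 16 UMIs. Of 13 genes of fluid and ion transport 11 were tested, 6 higher and 5 lower, with a median log2 fold change of 0.17. Of the 11, 0 had an unadjusted p under 0.05 (5.56% of all genes tested). Aqp3, counted among the 11, also chose the members, and nothing is read from its value. Atp1b1, a sodium pump subunit, was the most abundant at a mean of 607 CPM. Of the water channels, Aqp4 was at 108 and 97.4 CPM in young and 125, 138, 236 and 239 CPM in old members without TMM scaling, so that its groups did not overlap (log2 fold change 0.67, SE 0.338, edgeR adjusted p = 0.827). Aqp5 was at 480 and 449 against 476, 276, 336 and 295 CPM, and its groups overlapped.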
